A study of Mus musculus with 6 samples.

Results

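The 36 genes described here encode proteins of the lysosome and of autophagy. They were taken as the rows of the deposited expression table whose symbol equals a listed name, and all 36 names matched a row among the 19086 genes of the table. They fall into 6 roles: 8 cathepsins, 8 other lysosomal proteins, 3 transcription factors of lysosome genes, 6 subunits of the vacuolar proton pump (V-ATPase), 7 genes of the autophagy machinery, and 4 genes for the ATG8 proteins and the autophagy receptor p62. RNA was sequenced from haematopoietic stem cells (HSCs), the bone marrow cells that renew themselves and give rise to all blood lineages. They were sorted by surface markers as CD150+ CD48– cells of the LSK fraction, the lineage-negative cells that carry Sca-1 and Kit. The mice were C57BL/6.

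The 2 groups differed in the genotype of the marrow donor. Marrow of the first group was Zfp521-CKO, which the labels call deficient for Zfp521, a gene for a zinc finger protein of stem and progenitor cells. Marrow of the second was Zfp521fl/fl, with the floxed allele, and served as the control. In both groups CD45.2 donor marrow had been transplanted into lethally irradiated CD45.1 recipients, and HSCs were sorted from the recipients 2 months later. Each group had 3 libraries. The labels name neither the Cre driver nor the part of Zfp521 that is deleted, and they give no age for the mice. Nor do they tie a library to 1 animal. The spread behind each p-value is that among these libraries and may be of technical origin. The question of the comparison is which HSC genes differ by donor genotype, with stress after transplantation as the subject named in the series title.

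The libraries were very unequal, and this touches every value below. Totals of recovered reads were 3162574 to 56435472 per library labelled Zfp521-CKO and 7483083 to 10724405 in the Zfp521fl/fl libraries, a 17.8-fold span from the shallowest to the deepest. Replicate 3 labelled Zfp521-CKO was the shallowest and replicate 1 the deepest. The targeted gene went against the labels: Zfp521 had 1519, 126 and 0 reads in replicates 1, 2 and 3 labelled Zfp521-CKO, against 0, 3 and 0 in the Zfp521fl/fl libraries (two-sided exact permutation p = 0.4, where 3 against 3 cannot go below 0.1). Directions are therefore given for libraries as labelled. Slamf1, the gene for CD150, by which the cells were sorted, had no reads in the Zfp521fl/fl libraries or in replicates 2 and 3 labelled Zfp521-CKO. Other genes of the sort gate were found more widely. Ly6a, the gene for Sca-1, had reads in every library, and Kit in every library but Zfp521fl/fl replicate 2. In 9 of the 36 genes (Ctsa, Ctsb, Ctsz, Hexa, Npc1, Atp6v1b2, Becn1, Atg12 and Map1lc3b) the RefSeq annotation has an overlapping protein-coding gene. The sources used here do not say whether counting used strand, so reads of such neighbours cannot be told apart.

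Lysosomes are acidic organelles in which hydrolases break down proteins, lipids and sugars. The V-ATPase pumps protons into them, and the low pH activates the cathepsins, their main proteases. Autophagy brings a cell's own material to the lysosome: a kinase complex with ULK1 and a lipid kinase complex with Beclin 1 start a membrane, a conjugation system attaches ATG8 proteins (LC3 and GABARAP) to it, and receptors such as p62 bind the cargo. The transcription factors TFEB, TFE3 and MITF raise the expression of many of these genes together by binding the CLEAR element, a palindrome built around the E-box core CACGTG. In mice, HSCs depend on autophagy to keep their mitochondria in check, and lysosomal activity is tied to HSC quiescence.

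CLEAR-type letters are shown first, since they are the sequence by which TFEB and its relatives are known to bind genes of this kind. The promoter table of RefSeq (build GRCm38.p6) holds 300 bases per start site, 250 before and 50 after it, and had entries for 29 of the 36 genes. The core CACGTG, which reads the same on both strands, was found in 12 of the 29 genes (41.4%), against 8.09% of all 27025 genes in the table. The longer TCACGTG, searched on both strands, was in 10 of the 29 (34.5%) and in 4.29% of all genes. The 8-letter palindrome TCACGTGA, which contains both shorter words, was in 6 of the 29 (20.7%) and in 1.12% of all genes. All genes here are those of the promoter table, not limited to genes with reads in these libraries. Because the element is known from genes of this kind, higher shares in this list were likely beforehand, and no conclusion is drawn from them. By role, the core was in 4 of 5 V-ATPase promoters, 3 of 6 cathepsin promoters, 3 of 4 of the autophagy machinery, 2 of 7 of the other lysosomal proteins, and in 0 of 3 promoters of the transcription factors and 0 of 4 of the ATG8 and receptor genes. The 6 windows with the palindrome lie at chr2:164833736-164833787 (Ctsa, plus strand), chr7:142387895-142387950 (Ctsd, minus), chr8:105566050-105566092 (Atp6v0d1, minus), chr17:26676374-26676410 (Atp6v0e, plus), chr16:44139360-44139415 (Atp6v1a, minus) and chr16:45158733-45158788 (Atg3, plus). Each is written 5′ to 3′ on the gene's strand, with the palindrome in capitals, and runs at most 15 bases from the start site onwards.
Ctsa: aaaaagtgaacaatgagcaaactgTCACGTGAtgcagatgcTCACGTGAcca
Ctsd: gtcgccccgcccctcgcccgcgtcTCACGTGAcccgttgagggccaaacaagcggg
Atp6v0d1: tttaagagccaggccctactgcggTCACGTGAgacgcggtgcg
Atp6v0e: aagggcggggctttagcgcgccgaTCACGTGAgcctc
Atp6v1a: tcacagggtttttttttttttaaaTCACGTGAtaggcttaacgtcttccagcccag
Atg3: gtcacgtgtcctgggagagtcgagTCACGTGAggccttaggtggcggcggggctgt
Ctsa carries 2 copies in its window. A match is a description of these letters and does not show binding, and no match says only that the letters are not in this window. Group differences of the 6 genes ran from -1.17 to 3.80 log2 units (median 1.54, 5 of 6 above 0), against -3.10 to 8.34 (median 0.91, 16 of 23 above 0) in the 23 genes without the palindrome. Over all genes tested between the groups the median was 1.63, and 73.6% were above 0. Whether genes with and without the palindrome differ was not tested.

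As a set, the 36 genes were detected more widely than other genes but none passed the test between the groups. Reads were present in all 6 libraries for 19 of the 36 (52.8%), against 16.5% of all genes. Levels are given as log2 values, that is log2(normalized count + 1), which are not divided by gene length. None of the 36 passed the test between libraries labelled Zfp521-CKO and Zfp521fl/fl libraries (limma, Benjamini-Hochberg adjusted p under 0.05 over the 16436 genes tested), as in the table as a whole, where 0 genes (0%) passed. At an unadjusted p under 0.05 there were 2 of 36 (5.56%), both with the higher level under the Zfp521-CKO label, beside 5.58% of all genes tested and 5.09% that were higher. The difference was above 0 in 26 of 36 (72.2%), close to the 73.6% of all genes tested. Its median was 1.05 log2 units over the 36 and 1.63 over all genes tested. Among genes with reads in all 6 libraries the median was 0.39 for the 19 such members, 12 of them above 0, and 0.03 for all 3140 such genes, of which 51% were above 0. Groups did not overlap in 3 of the 36 (8.33%), Gaa, Npc1 and Atp6v0e, each higher under the Zfp521-CKO label, beside 6.19% of all genes that were higher in this way. None of the 36 was lower in this way, beside 1.79% of all genes. In bulk RNA, fewer cells of a type and less RNA per cell cannot be told apart.

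**Figure D1:**
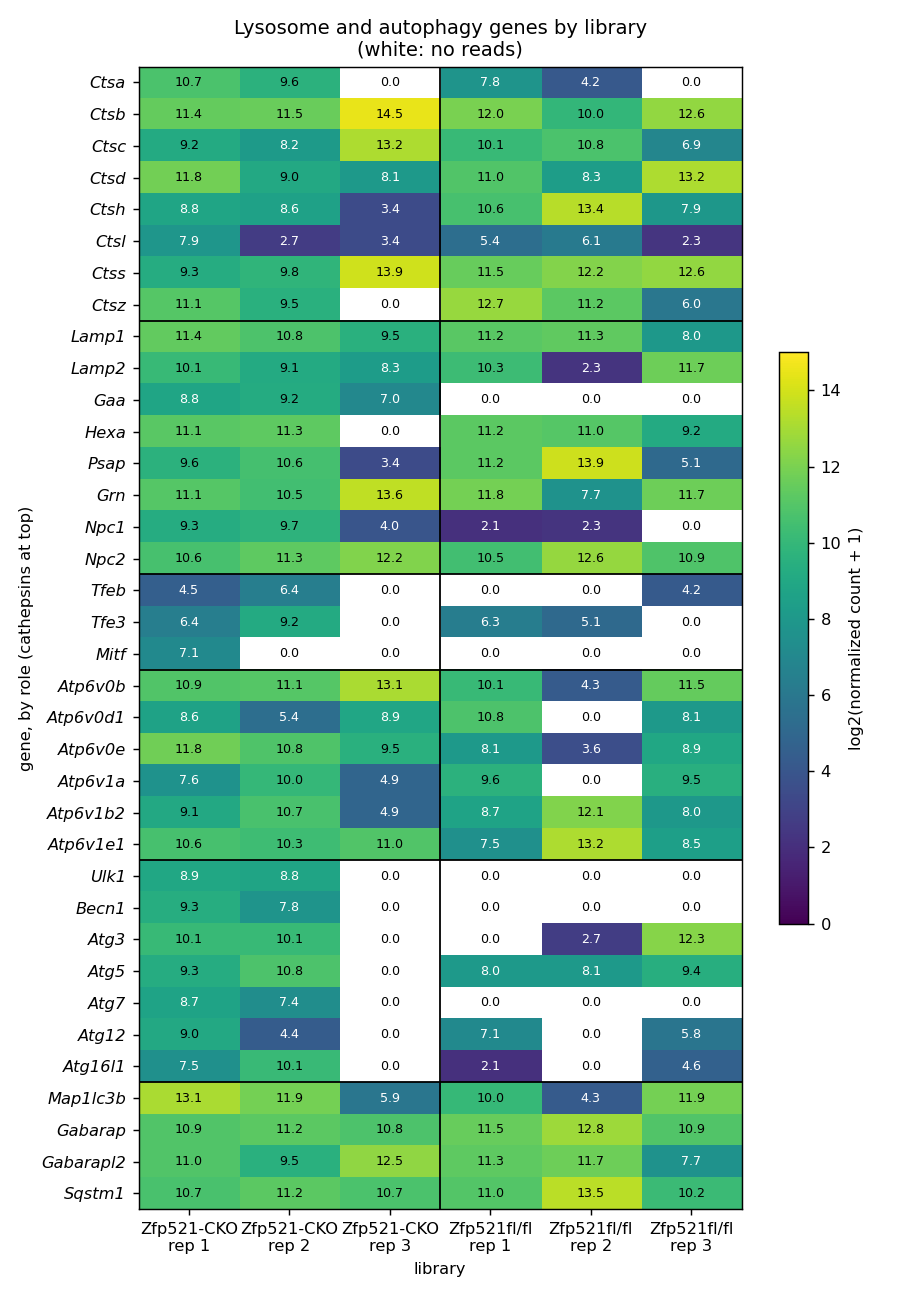
Log2(normalized count + 1) of each of the 36 genes (rows, in 6 role blocks) in each library (columns), with white cells where a library had no reads. The white cells gather in the blocks of transcription factors and autophagy machinery, where replicate 3 labelled Zfp521-CKO had reads of 0 of 10 genes, while the ATG8 and receptor block at the bottom had reads in every library.

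The libraries differed in how many of the 36 genes they held at all. Reads were found for 36, 35 and 23 of the 36 genes in replicates 1, 2 and 3 labelled Zfp521-CKO, against 29, 26 and 28 in Zfp521fl/fl replicates 1, 2 and 3. After thinning every library to the depth of the shallowest, the numbers were 36, 34.95 and 23, against 28.25, 24.9 and 27.9 (means of 20 draws). Equal depth thus changed them little, and replicates 1 and 2 labelled Zfp521-CKO stayed above every other library. The same held for all genes of the table, of which 76.5%, 66.3% and 33.8% were detected at equal depth under the Zfp521-CKO label and 48.0%, 29.4% and 36.8% in the Zfp521fl/fl libraries. In replicate 3 labelled Zfp521-CKO, 13 of the 36 had no reads. Of these 13, 12 had reads in both other libraries labelled Zfp521-CKO, where thinning to the same depth still left 6.85 reads (Atg12 in replicate 2) to 813 reads (Hexa in replicate 2).

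**Figure D2:**
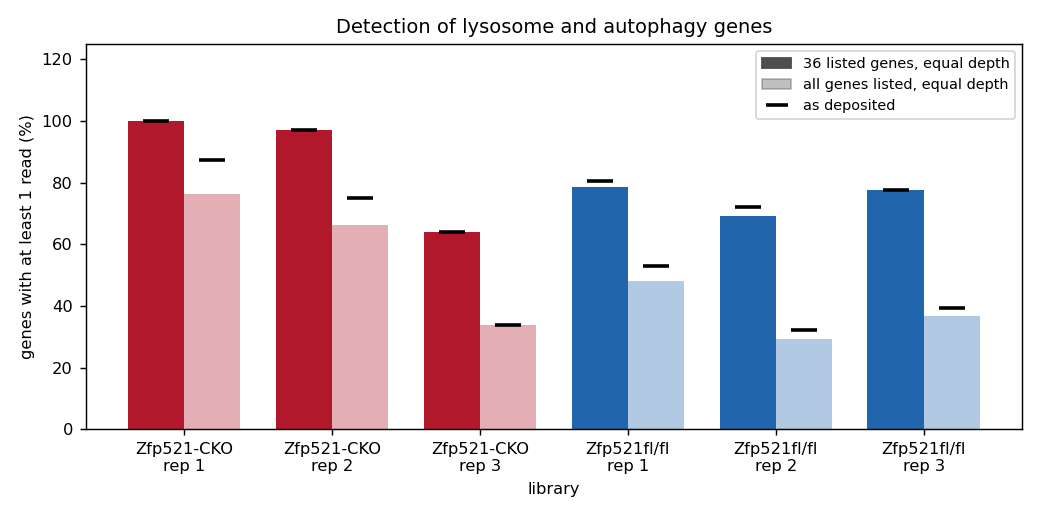
Percent of genes with at least 1 read in each library at equal depth, for the 36 lysosome and autophagy genes (dark bars) and for all genes of the table (pale bars), in red for libraries labelled Zfp521-CKO and blue for Zfp521fl/fl libraries, with black dashes at the values as deposited. In every library the 36 lie above all genes, and replicates 1 and 2 labelled Zfp521-CKO lie highest, at 100% and 97.1% of the 36.

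The cathepsins were present in nearly every library, and their order differed from one library to the next. Summed over the 8 genes they took 1336, 690 and 3107 RPM (reads per 1000000 reads of the library) in replicates 1, 2 and 3 labelled Zfp521-CKO, against 1619, 1484 and 1460 in the Zfp521fl/fl libraries. The Zfp521fl/fl sums lay close together, and the libraries labelled Zfp521-CKO lay on both sides of them. None of the 8 passed the test, 4 differences were above 0 and 4 below, and the median was -0.54 log2 units.

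Ctsh, an aminopeptidase of the lysosome, had log2 values of 8.83, 8.60 and 3.42 in libraries labelled Zfp521-CKO, against 10.64, 13.40 and 7.94 in the Zfp521fl/fl libraries. The groups overlap, with the lowest Zfp521fl/fl library below replicates 1 and 2 labelled Zfp521-CKO, where the lowest value of all stands for 2 reads. The difference was -3.71 ± 2.06 (SE; limma adjusted p = 0.61), and it was -1.94 without replicate 3 labelled Zfp521-CKO and -2.34 without Zfp521fl/fl replicate 2. Ctsz, a carboxypeptidase, was at 11.06, 9.53 and 0, against 12.68, 11.24 and 5.97, a difference of -3.10 ± 2.89 (adjusted p = 0.67). Its sign rested on replicate 3 labelled Zfp521-CKO, without which the difference was 0.33.

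For 3 cathepsins that same library held the highest value. Ctss, the cathepsin of antigen-presenting cells that trims the invariant chain, was at 9.28, 9.80 and 13.90 in libraries labelled Zfp521-CKO, against 11.52, 12.20 and 12.58. Replicates 1 and 2 labelled Zfp521-CKO lay below every Zfp521fl/fl library and replicate 3 above. Ctsb, a broad endopeptidase, was at 11.43, 11.54 and 14.49, against 11.97, 9.96 and 12.56. Ctsc, which activates the serine proteases of neutrophil granules, was at 9.17, 8.18 and 13.18, against 10.13, 10.75 and 6.86. For each of the 3, replicate 3 labelled Zfp521-CKO was the highest of all 6 libraries. Ctsd, the main aspartic protease of lysosomes, did the reverse, at 11.83, 9.04 and 8.07, against 10.95, 8.35 and 13.15, with replicate 3 labelled Zfp521-CKO the lowest of the 6. Ctsl, an endopeptidase, was low, at 7.90, 2.65 and 3.42, against 5.44, 6.11 and 2.31. Ctsa, which also protects lysosomal sialidase and galactosidase, was at 10.74, 9.61 and 0, against 7.77, 4.18 and 0.

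Cathepsins are abundant in phagocytes, and markers of those cells differed between the same libraries. The 15 neutrophil markers took 0.040%, 1.45% and 12.7% of the reads in replicates 1, 2 and 3 labelled Zfp521-CKO, against 12.4% to 15.01% in the Zfp521fl/fl libraries. S100a8 made up 46.3% to 51.3% of this sum in every library but replicate 1 labelled Zfp521-CKO. In replicate 3 of that label, Mpo was at 8.24, against 12.43 to 13.71, and Prtn3 at 4.92, against 13.07 to 14.19. Ltf, at 15.27 against 14.52 to 14.61, and Lcn2, at 15.25 against 14.30 to 15.01, went the other way. The 15 markers of monocytes and macrophages took 0.11%, 0.28% and 0.85%, against 0.36% to 0.89%. Lyz2, which neutrophils also express, made up 70.4% to 95.5% of that sum. Of the 15, 8, 10 and 11 had reads in replicates 1, 2 and 3 labelled Zfp521-CKO, against 12, 10 and 9. Single markers went different ways: Csf1r had no reads in replicates 1 and 2 labelled Zfp521-CKO alone, Cd68 had reads in replicate 1 of that label alone, and Adgre1 in Zfp521fl/fl replicate 1 alone. The cathepsin sum was highest in replicate 3 labelled Zfp521-CKO, the library of that group with the largest shares of both marker lists. Ctsb made up 48.0% of the cathepsin sum in that library. Replicates 1 and 2 of that label went the other way. The cathepsin sum was larger in replicate 1, and both marker shares were larger in replicate 2. The part of these cells in the cathepsin values was not tested. The 15 HSC markers took 0.16%, 0.17% and 0.025%, against 0.011%, 0.14% and 0.024%. Ly6a, which encodes Sca-1, made up 89.8% of that sum in replicate 3 labelled Zfp521-CKO and 87.0% in Zfp521fl/fl replicate 2. The other 14 took 0.13%, 0.14% and 0.0026%, against 0.011%, 0.019% and 0.024%.

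**Figure D3:**
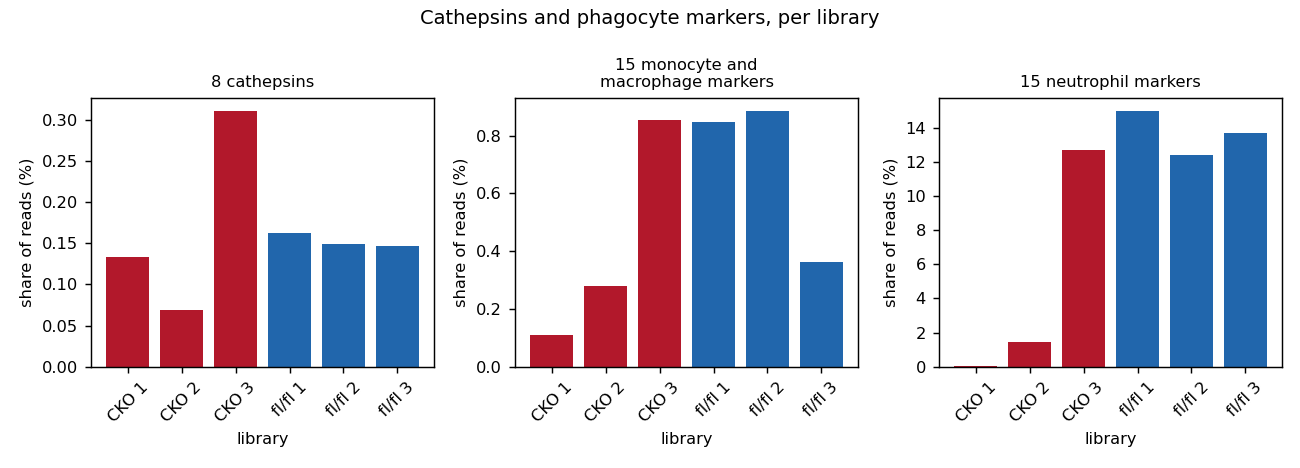
Share of reads (%) taken in each library by the 8 cathepsins, the 15 monocyte and macrophage markers and the 15 neutrophil markers, with libraries labelled Zfp521-CKO in red and Zfp521fl/fl libraries in blue. In red, all 3 shares are largest in replicate 3. Between replicates 1 and 2 in red, the cathepsins are larger in replicate 1 and both marker lists in replicate 2. In blue the cathepsins stay between 0.15% and 0.16% at neutrophil shares of 12.4% to 15.01%.

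Among the other lysosomal proteins, Gaa and Npc1 stood apart by being almost absent from the Zfp521fl/fl libraries. Gaa, the acid glucosidase that breaks down glycogen in the lysosome, had 2795, 1891 and 26 reads in libraries labelled Zfp521-CKO, against 0, 0 and 0. The groups do not overlap. As RPM Gaa averaged 39.8 in libraries labelled Zfp521-CKO, at least 110-fold higher than the 0.36 that 3 reads in each Zfp521fl/fl library would give on average. On the log2 scale the difference was 8.34 ± 2.38 (SE; unadjusted p = 0.0049, limma adjusted p = 0.61). A gene with reads in some library labelled Zfp521-CKO and in no Zfp521fl/fl library was common: 6795 genes of the table (35.6%) and 5 of the 36 (13.9%) were of this kind. Floors and intervals of this kind cover counting error only, since PCR copies are not independent molecules.

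Npc1, the membrane protein that exports cholesterol from the lysosome, had 3944, 2642 and 3 reads in libraries labelled Zfp521-CKO, against 3, 2 and 0. As log2 values these were 9.31, 9.69 and 3.96, against 2.07, 2.26 and 0. The groups do not overlap, but in replicate 3 labelled Zfp521-CKO the value rests on the same 3 reads that stand for 2.07 in Zfp521fl/fl replicate 1, because 1 read is worth more in the shallower library. As RPM that library was at 0.95, against 0.28, 0.27 and 0. The difference was 6.21 ± 2.62 (SE; unadjusted p = 0.037, limma adjusted p = 0.61). Npc2, the soluble partner that hands cholesterol to NPC1, had reads in every library. It was at 10.65, 11.29 and 12.16, against 10.47, 12.61 and 10.87, and the groups overlap.

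The remaining 5 of this role had reads in all but 1 library or in all 6, and overlapped between the groups. Lamp1, a major glycoprotein of the lysosomal membrane, was at 11.39, 10.78 and 9.54 in libraries labelled Zfp521-CKO, against 11.19, 11.34 and 8.02. Lamp2, its relative that also serves chaperone-mediated autophagy, was at 10.14, 9.15 and 8.26, against 10.26, 2.26 and 11.66. Its low value stands for 2 reads in Zfp521fl/fl replicate 2. Grn, the precursor of the lysosomal granulins, was at 11.07, 10.48 and 13.55, against 11.85, 7.66 and 11.68. Psap, the precursor of the saposins that help degrade sphingolipids, was at 9.64, 10.56 and 3.42, against 11.23, 13.85 and 5.12. Hexa, a subunit of the hexosaminidase that degrades gangliosides, was at 11.14, 11.25 and 0, against 11.25, 11.03 and 9.15.

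The transcription factors that drive lysosome genes had reads in some libraries and none in others. Tfeb had 138, 271 and 0 reads in libraries labelled Zfp521-CKO, against 0, 0 and 9. Its log2 values of 4.53, 6.42 and 0, against 0, 0 and 4.24, overlap, and the difference was 2.24 ± 2.49 (SE; limma adjusted p = 0.69). With quantile normalization it was -0.62, and on leaving out 1 library it ran from 0.86 (without replicate 2 labelled Zfp521-CKO) to 4.06 (without replicate 3 of that label). Mitf had reads in replicate 1 labelled Zfp521-CKO alone (842, a log2 value of 7.09), with a difference of 2.36 ± 2.00 (adjusted p = 0.67). No reads is compatible with as many as 3, which is 0.098 and 0.95 RPM in replicates 2 and 3 labelled Zfp521-CKO and 0.28 to 0.40 in the Zfp521fl/fl libraries. Tfe3 was at 6.42, 9.16 and 0, against 6.33, 5.13 and 0. Replicate 3 labelled Zfp521-CKO had no read of any of the 3.

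The V-ATPase subunits were nearly all present, and the libraries labelled Zfp521-CKO were close to each other in their sum. The 6 genes took 898, 835 and 788 RPM there, against 407, 969 and 330 in the Zfp521fl/fl libraries, whose range holds all 3 of the others. The make-up of these close sums differed. Atp6v0e led in replicate 1 labelled Zfp521-CKO with 42.7% of the sum, and Atp6v0b in replicates 2 and 3 with 26.6% and 73.3%. Atp6v0e, a small subunit of the membrane-bound V0 part, was at 11.76, 10.85 and 9.49 in libraries labelled Zfp521-CKO, against 8.14, 3.63 and 8.94. The groups do not overlap, although the nearest libraries are 0.55 log2 units apart on values that span 5.31 within the Zfp521fl/fl group. The difference was 3.80 ± 1.83 (SE; unadjusted p = 0.062, limma adjusted p = 0.61), and it was 2.16 without Zfp521fl/fl replicate 2, which had 6 reads. Atp6v0b, part of the proton-carrying ring, was at 10.93, 11.05 and 13.12, against 10.13, 4.32 and 11.47, with a difference of 3.06 ± 1.79 (adjusted p = 0.61). Without Zfp521fl/fl replicate 2, the library with 10 reads of the gene, the difference was 0.90.

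The subunits did not move as one complex across libraries. Atp6v1e1, of the peripheral stalk, was steady at 10.64, 10.33 and 10.95 under the Zfp521-CKO label and ran through 7.53, 13.17 and 8.49 in the Zfp521fl/fl libraries. Zfp521fl/fl replicate 2 was highest of the 6 libraries for Atp6v1e1 and for Atp6v1b2, a subunit that helps bind ATP (9.07, 10.71 and 4.92, against 8.73, 12.14 and 7.99). That same library had no reads of Atp6v1a, the catalytic subunit (7.63, 9.998 and 4.92, against 9.64, 0 and 9.46), or of Atp6v0d1, which links the rotor to the membrane part (8.65, 5.41 and 8.90, against 10.84, 0 and 8.06). In reads, Zfp521fl/fl replicate 2 had 4854 of Atp6v1e1 and 2383 of Atp6v1b2 beside 0 of both others.

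**Figure D4:**
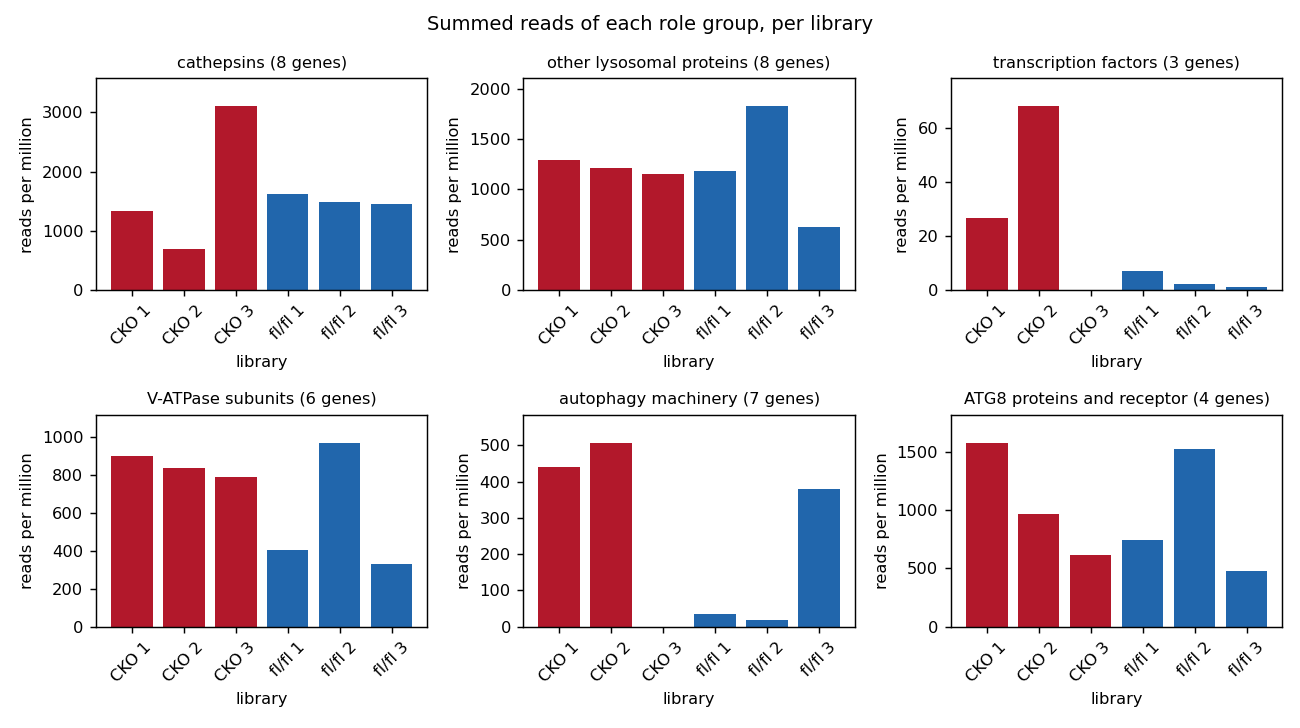
RPM summed over the genes of each role, in each library, with libraries labelled Zfp521-CKO (CKO) in red, Zfp521fl/fl libraries (fl/fl) in blue, and 1 scale per panel. The autophagy machinery runs at 440, 507 and 0 in red and 35.2, 19.5 and 379 in blue. The other lysosomal proteins differ by less among the red bars, at 1156 to 1291, where Grn makes up 67.5% of the sum in replicate 3.

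The autophagy machinery was either fully present or wholly missing within the Zfp521-CKO label. All 7 genes had reads in replicates 1 and 2 labelled Zfp521-CKO and 0 of 7 in replicate 3. In Zfp521fl/fl replicates 1, 2 and 3 it was 3, 2 and 4. Of all genes, 87.4%, 74.9% and 33.8% had reads under the Zfp521-CKO label, against 52.9%, 32.1% and 39.2%. Summed, the 7 took 440, 507 and 0 RPM, against 35.2, 19.5 and 379. Atg3 alone made up 86.4% of the last of these values. The median difference of the 7 was 3.65 log2 units, and 0.95 among those with reads in both groups. Over all genes tested these 2 medians were 1.63 and 0.97. None passed the test with all libraries.

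Ulk1, the kinase that starts autophagy, had 3008, 1381 and 0 reads in libraries labelled Zfp521-CKO and 0, 0 and 0 in the Zfp521fl/fl libraries. Becn1, which encodes Beclin 1, had 4043, 706 and 0, against 0, 0 and 0. Atg7, the E1-like enzyme that both conjugation systems need, had 2605, 524 and 0, against 0, 0 and 0. These 3 genes share 1 pattern: reads in the same 2 libraries and in no other. Those 2 libraries also detected the most genes of the whole table. Reads in some library labelled Zfp521-CKO and in no Zfp521fl/fl library were found for 35.6% of all genes. As RPM, the means of Ulk1, Becn1 and Atg7 over the libraries labelled Zfp521-CKO were 32.7, 31.5 and 21.1. They are at least 90-fold, 87-fold and 58-fold higher than the 0.36 that 3 reads in each Zfp521fl/fl library would give on average. Without replicate 1 labelled Zfp521-CKO, the means of Becn1 and Atg7 were 11.5 and 8.53 RPM, at least 31-fold and 23-fold higher. Replicate 3 of the same label was itself at 0, which allows up to 0.95 RPM. The groups overlap at 0. The differences of Ulk1 and Becn1 were 5.89 ± 2.81 and 5.71 ± 2.77 (SE), each with a limma adjusted p = 0.61.

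The other 4 genes of the machinery were found in both groups. Atg5, which joins ATG12 to form part of the E3-like complex, was the one with reads in all Zfp521fl/fl libraries. It was at 9.31, 10.81 and 0 in libraries labelled Zfp521-CKO, against 8.03, 8.09 and 9.42. Atg12, its ubiquitin-like partner, was at 9.05, 4.37 and 0, against 7.11, 0 and 5.82. Atg16l1, which places that complex on the membrane, was at 7.50, 10.15 and 0, against 2.07, 0 and 4.63. Atg3, the E2-like enzyme that hands ATG8 proteins to lipid, was at 10.10, 10.09 and 0, against 0, 2.74 and 12.25, so Zfp521fl/fl libraries held its highest value and, with replicate 3 labelled Zfp521-CKO, its values of 0.

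The genes of the ATG8 proteins, on which the conjugation machinery acts, and of the receptor p62 had reads in all 6 libraries. Gabarap was the steadiest of the 36 in libraries labelled Zfp521-CKO, at 10.93, 11.20 and 10.84, against 11.51, 12.80 and 10.92 in the Zfp521fl/fl libraries. The difference was -0.75 ± 0.92 (SE; limma adjusted p = 0.71), and the groups overlap. It was -0.23 without Zfp521fl/fl replicate 2 and -1.16 without Zfp521fl/fl replicate 3. Sqstm1, which encodes p62, was at 10.68, 11.21 and 10.75, against 10.97, 13.45 and 10.21. Gabarapl2 was at 10.95, 9.53 and 12.52, against 11.29, 11.70 and 7.65. Map1lc3b, which encodes LC3B, was at 13.10, 11.88 and 5.89, against 10.04, 4.32 and 11.87, a spread of over 7 log2 units in each group. Its difference was 1.55 ± 2.31 (adjusted p = 0.77), and without Zfp521fl/fl replicate 2, which had 10 reads, it was -0.67.

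Replicate 3 labelled Zfp521-CKO decided whether any of the 36 passed. Without it, 5 of 36 (Gaa, Npc1, Ulk1, Becn1 and Atg7) passed, each higher under the Zfp521-CKO label. Atg7 is named here after its values were seen. Their differences were then 9.01, 8.06, 8.84, 8.57 and 8.04 log2 units, with limma adjusted p-values of 0.0083 to 0.018. In the same fit 15.4% of all genes passed, 2496 of them higher (15.2%) and 34 lower. The 5 of 36 therefore lie near the background. With a weight for each library (0.24 for replicate 3 labelled Zfp521-CKO and 0.82 to 2.11 elsewhere) the same 5 passed (adjusted p = 0.047 for each), beside 10.1% of all genes (9.93% higher). Of the genes called without replicate 3, 68.0% had no reads in any Zfp521fl/fl library, as had 4 of these 5. Leaving out any other single library gave 0 of 36.

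**Figure D5:**
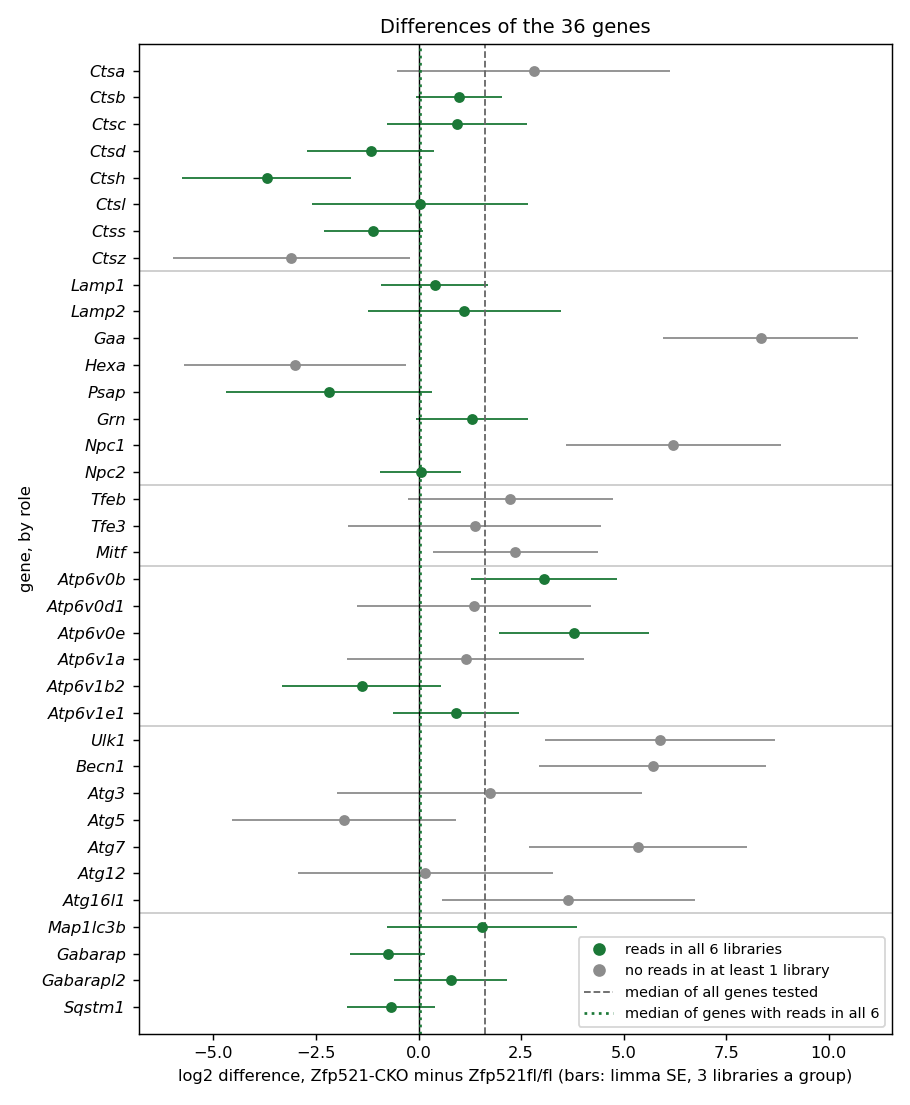
Log2 difference, Zfp521-CKO minus Zfp521fl/fl, of each of the 36 genes with its limma standard error (3 libraries a group), in green where a gene had reads in every library (19 genes) and in grey for the others. The largest differences, Gaa at 8.34, Npc1 at 6.21, Ulk1 at 5.89 and Becn1 at 5.71, are all grey, and the green points lie between -3.71 and 3.80.

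Libraries of 1 label differed from each other over a range like that across labels. Over the 19 members with reads everywhere, the median absolute difference between 2 libraries was 0.64 log2 units for replicates 1 and 2 labelled Zfp521-CKO, the closest pair. It was 2.48 and 2.06 for the pairs with replicate 3 of that label, and 1.34 to 4.05 within the Zfp521fl/fl group, where replicates 2 and 3 were the most distant pair of all. Between the groups it ran from 0.80 to 2.92. Over all 3140 genes with reads in every library the pairs within the Zfp521fl/fl group differed by 1.21 to 1.58. The range within the Zfp521fl/fl group exceeded 4 log2 units in 11 of the 19 members, and in 7 of the 19 within libraries labelled Zfp521-CKO. For all 19, the difference between the groups was smaller than the larger of the 2 ranges within them. Overlap of the groups, present in all of them but Atp6v0e, makes this outcome likely beforehand. The share over all genes was not computed, so no conclusion is drawn from it.

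Further genes of the same pathways gave a like picture. Of 149 such genes in 9 lists, 147 matched a row and were tested, and 0 passed. At an unadjusted p under 0.05, 6 had a difference above 0 and 1, Uvrag, below, near the 5.58% of all genes tested, and with the altered values of Uvrag described below taken out the count was 6. The difference was above 0 in 111 of 147, with a median of 2.33 log2 units, beside 73.6% and 1.63 for all genes tested. Among genes with reads in both groups the median was 1.66 for these pathway genes and 0.97 for all genes tested. Among 32 further hydrolases 28 were above 0 (median 2.78, and 2.59 among those with reads in both groups), and among 13 genes of lysosomal sorting 12 were (3.48, and 3.35). For 28 further genes of the autophagy machinery it was 17 (1.77, and -0.46), and for 19 genes of mTORC1 and AMPK signalling at the lysosome 11 (0.31 both ways). The other lists had medians of 1.20 (autophagosome-lysosome fusion, 10 of 13 above 0), 1.29 (cathepsin inhibitors, 4 of 6), 2.06 (lysosomal membrane, 12 of 14), 2.15 (V-ATPase, 9 of 12) and 2.41 (autophagy receptors, 8 of 10). Among their genes with reads in both groups these medians were 1.11 for fusion, 0.49 for the inhibitors, 1.83 for the membrane, 2.00 for the V-ATPase and 0.87 for the receptors.

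The gene of the smallest p in each list is given by its values, each with a limma adjusted p = 0.61. Gusb, the lysosomal glucuronidase, was at 10.29, 10.33 and 11.45 in libraries labelled Zfp521-CKO, against 3.25, 2.26 and 0 in the Zfp521fl/fl libraries. Tsc2, the subunit of the complex that restrains mTORC1, was at 8.36, 8.71 and 8.71, against 0, 0 and 0. The groups of both genes do not overlap, and both are high in replicate 3 as well, unlike Ulk1, Becn1 and Atg7. Of the 147 pathway genes, as deposited, 6 were higher under the Zfp521-CKO label without overlap and 2 lower. Of all genes, 6.19% were higher and 1.79% lower in this way. Laptm4b, a lysosomal membrane protein, was at 8.87, 9.71 and 3.96, against 0, 0 and 2.80, where 3.96 and 2.80 each stand for 3 reads. Its groups do not overlap either. Cstb, which encodes the cathepsin inhibitor stefin B, was at 10.64, 9.57 and 11.77, against 5.08, 4.57 and 10.09.

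Nagpa, the enzyme that uncovers the mannose 6-phosphate tag for sorting to lysosomes, was at 7.92, 8.92 and 0, against 0, 0 and 0. Bnip3, a mitophagy receptor, was at 8.36, 7.12 and 0, against 0, 0 and 0. Both repeat the pattern of Ulk1, Becn1 and Atg7, with reads only in the libraries that detected the most genes of the table. Atp6v0c, the main subunit of the proton-carrying ring, was at 12.19, 10.46 and 0, against 12.77, 13.33 and 11.67. Without replicate 3 labelled Zfp521-CKO its difference of -5.04 became -1.26.

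Uvrag, a partner of Beclin 1, and Vps39, a subunit of the HOPS tethering complex, were the 2 pathway genes in a block of 75 rows whose values are not whole reads. As deposited, Uvrag was at 7.01, 6.77 and 6.42, against 9.66, 10.85 and 11.78, and Vps39 at 7.21, 7.67 and 6.42, against 9.73, 10.98 and 10.02. With the shifts taken out that make them whole, Uvrag had 3.42 in replicate 3 labelled Zfp521-CKO and 2.66 in Zfp521fl/fl replicate 1. Vps39 then had 9.21 and 3.42 in replicates 1 and 3 labelled Zfp521-CKO, against 5.73, 12.98 and 12.02. The groups of both genes overlap in that form, and the differences were -2.70 and -3.47 in place of -4.03 and -3.14. None of the 36 listed genes was in this block.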

How the data were processed

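Per the labels' protocols, RNA was purified with a column kit for small samples and libraries followed Illumina's usual protocol. Build mm9, Bowtie and DESeq2 1.26.0 are listed, without roles, in the submitters' processing notes; the sources used here give no read counter, annotation or strand setting. Although labelled FPKM, the values the authors deposited are on a log2 scale, log2(reads / library factor + 1): 99.7% of the 61139 values above 0 were whole reads within 0.001 read. The other 213, in 1 block of rows, became whole after shifts searched in steps of 0.1 log2 units, and recovered reads have these taken out. Since values were already logged, limma 3.58.1 (R 4.3.3; lmFit, eBayes with a trend, genotype only, two-sided) was run on them as deposited, for genes with a mean normalized count of at least 1, with Benjamini-Hochberg adjustment. The fit was also run on simulated counts with known changes, placed in abundant genes only. Their spread was a single set value not taken from these libraries, so that run does not show how the fit performs on them. Members and gene lists were chosen with earlier results of these data known. Differences with tests are given for the 2 members of smallest p in each role, and 1 gene per further list is named. Libraries were thinned to 3162574 reads. Promoters are from RefSeq (GRCm38.p6), another build than mm9, and no coordinates of mm9 are given.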

Additional observations from a re-analysis of the deposited data

How the results depend on the processing

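Of 415 alternative values for the 22 genes named with a test, 394 kept their sign and side of the threshold, 18 passed the threshold anew (9 genes, each with weights per library and without replicate 3 labelled Zfp521-CKO) and 3 changed sign. Leaving out 1 library, Ctsz ran from -5.19 to 0.33 and Map1lc3b from -0.67 to 3.74, and with quantile normalization Tfeb was -0.62. The number of genes past the threshold, 0, became 17 with quantile normalization, 6 with voom on recovered reads and 1660 with weights per library, and 0 to 2530 on leaving out 1 library. For the 36 genes it was 5 with weights and 0 to 5, and for further pathway genes 21 with weights and 0 to 31, each of the highest counts being without replicate 3 labelled Zfp521-CKO. Voom gave 0 of 36, with 7 at an unadjusted p under 0.05. The median difference of the 36, 1.05, ran from 0.31 (quantile normalization) to 1.45. At 3 reads or more, 20 in place of 23 of the 36 were detected in replicate 3 labelled Zfp521-CKO, 24 in place of 26 in Zfp521fl/fl replicate 2 and 27 in place of 28 in Zfp521fl/fl replicate 3, with the other libraries as before. Without the 10 most abundant genes in the total, the share of reads of the 36 was 0.52% and 0.93% in replicates 2 and 3 labelled Zfp521-CKO and 0.57%, 0.80% and 0.58% in the Zfp521fl/fl libraries, in place of 0.43% and 0.57%, and 0.40%, 0.58% and 0.33%. Deviations of same-numbered libraries correlated at 0.12, -0.0030 and -0.029 across genes, and those of unlike-numbered libraries at -0.10 to 0.072. Such correlations cannot show whether libraries were handled in pairs. With the replicate number as a block 0 genes passed. The causes were not tested. Depth limits what an absent gene can show, most in replicate 3 labelled Zfp521-CKO.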
